A study of Mus musculus with 24 samples.

Results

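The account covers 10 genes of glucocorticoid action in differentiating mouse fat cells: the receptor gene Nr3c1, the steroid-activating enzyme gene Hsd11b1, and the hormone-responsive genes Fkbp5, Tsc22d3, Sgk1, Ddit4, Errfi1, Zbtb16, Mt1 and Mt2. The members were chosen by gene symbol, and every beadchip probe annotated to a member was used. Of the 10 genes 9 had a probe, with 13 probes in all out of 25697 in the table. Hsd11b1 had 4 probes and Tsc22d3 had 2, and the other 7 genes had 1 each. Zbtb16 was not analysed here. All 13 probes were among the 14160 with a detection p-value under 0.05 on at least 3 of the 24 arrays, and only those 14160 were tested.

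The cells were NIH 3T3 L1, a mouse fibroblast line that accumulates fat and becomes adipocyte-like in culture. RNA was taken on days 0, 2, 4, 6, 8, 10, 14 and 18, with 3 arrays per day. The cells of day 0 were called undifferentiated, those of days 2 and 4 differentiating, and those from day 6 onwards maturating. A medium with insulin, IBMX and dexamethasone is named for every day, day 0 included, and for days 6 to 18 a maturation medium that contains insulin is named as well. Dexamethasone is a synthetic glucocorticoid, and IBMX is a phosphodiesterase inhibitor that raises cyclic AMP. The sources used here do not give whether day 0 preceded the inducing medium, or when the medium was changed. No arm without dexamethasone was analysed here, so time, medium and differentiation cannot be told apart. It is a single cell line, and the labels do not say that the replicates were separate cultures, so p-values measure the spread between these arrays, which may be technical.

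The glucocorticoid receptor waits in the cytoplasm in a complex with the chaperone Hsp90 and immunophilins. Once it binds a steroid it moves to the nucleus, binds DNA and switches a set of target genes on or off. Several targets feed back on the hormone signal or restrain growth signals. Fat cells are also a site where inactive glucocorticoid is turned back into active hormone, by the enzyme that Hsd11b1 encodes. Dexamethasone is an old component of adipogenic cocktails for these cells.

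Levels below are normalized log2 intensities of a probe. They are compared between days for the same probe and never between probes. Differences are in log2 units ± SE of the limma fit, with n = 3 arrays per day, and p-values are adjusted over all 14160 probes. Between 45.5% and 48.8% of probes were detected per array, and the number of arrays limits the precision. The adipocyte markers Adipoq, Plin1, Cidec and Slc2a4 were detected on 21 of 24 arrays, Lep on 20 and Fabp4 on 18, and the fibroblast markers Col1a1, Col1a2, Thy1 and Dlk1 on all 24. The leukocyte markers Ptprc and Adgre1 and the endothelial markers Pecam1, Cdh5 and Kdr were detected on 0 arrays. Of the muscle markers Myod1 was detected on 0 arrays, Myog on 19 and Des on 24, and the epithelial marker Cdh1 was detected on 3. Day 4 replicate 2 lay apart from its day, at -45.3 on the second principal component against -58.5 and -58.7.

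**Figure D1:**
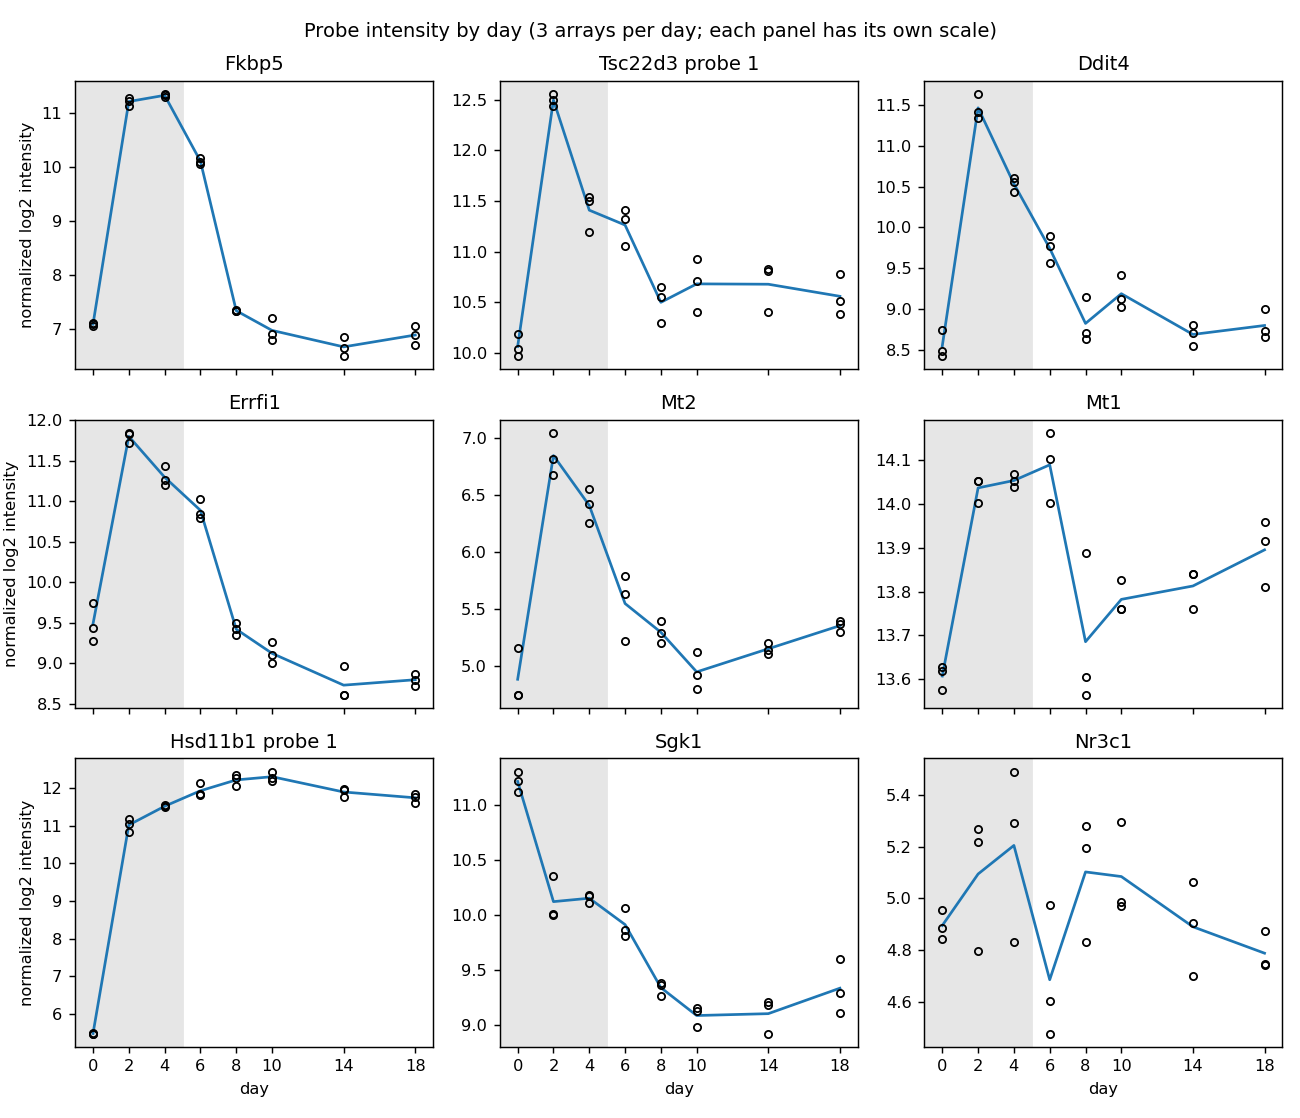
Normalized log2 intensity (vertical axis, own scale in each panel) against day for 1 probe of each of the 9 genes. Circles are single arrays (3 per day), the line joins day means, and the grey band marks days 0 to 4, whose labels name only the inducing medium. Fkbp5, Tsc22d3, Ddit4, Errfi1 and Mt2 were high on days 2 and 4 and low from day 8, whereas Hsd11b1 rose and stayed high and Sgk1 fell.

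The receptor transcript itself was measured close to background. Nr3c1 (chromosome 18, 39410545 to 39519421, GRCm38.p6) was detected on 16 of 24 arrays. Its day means ran from 4.69 ± 0.26 (SD, n = 3) on day 6 to 5.20 ± 0.34 on day 4, and its array values overlapped on nearly all days. The F test over the 8 days did not pass for Nr3c1 (adjusted p = 0.0991). Of its contrasts 2 did: day 6 was lower than day 4 by -0.52 ± 0.17 (adjusted p = 0.0279), and days 6 to 18 were lower than days 2 and 4 by -0.24 ± 0.10 (adjusted p = 0.0469). Neither call held when single arrays were left out, the first at adjusted p = 0.0832 without day 4 replicate 2 and the second at adjusted p = 0.181 without day 4 replicate 3. At this signal neither call for the receptor transcript is firm.

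Hsd11b1, which encodes 11β-hydroxysteroid dehydrogenase type 1 (chromosome 1, 193221640 to 193264045), rose by the widest margin of all members and stayed high to day 18. Its brightest probe read 5.48, 5.47 and 5.48 on the day 0 arrays and 11.19, 11.05 and 10.82 on the day 2 arrays. The groups were far apart, and the difference was 5.54 ± 0.11, or 46.6-fold (adjusted p = 3.66e-19). The level went on to 11.52 ± 0.03 on day 4 and 11.93 ± 0.17 on day 6, both steps passing the test (adjusted p = 0.000867 and adjusted p = 0.00656). The second step did not pass without day 6 replicate 1 (adjusted p = 0.0511). It was highest on day 10, at 12.30 ± 0.12, and stood at 11.74 ± 0.12 on day 18, which was 77-fold above day 0 (adjusted p = 3.67e-20). The order of day means was 10, 8, 6, 14, 18, 4, 2 and 0, and no step of this probe after day 6 passed in the fit as reported.

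Days 6 to 18 exceeded days 2 and 4 by 0.75 ± 0.06 (adjusted p = 2.05e-09). Same-numbered replicates deviated together across days, and with the replicate number as a block the later fall from day 10 to day 14 by -0.41 ± 0.08 passed as well (adjusted p = 0.0043 with the block and adjusted p = 0.064 without it). That fall also passed with no background correction (adjusted p = 0.0283), with normexp (adjusted p = 0.0377), on the authors' processed values (adjusted p = 0.0196), and without day 2 replicate 3 (adjusted p = 0.0483) or day 6 replicate 1 (adjusted p = 0.0487). The step from day 6 to day 8 passed with the block (0.29, adjusted p = 0.0127) and without day 6 replicate 1 (0.39, adjusted p = 0.039). Day 0 lay near background, and without background correction the day 2 rise of the brightest probe was 3.93 in place of 5.54.

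The 4 Hsd11b1 probes did not all report the same size. The probes next in brightness rose by 5.37 ± 0.12 and 5.32 ± 0.12 on day 2 and followed the first with Pearson correlations of 0.999 over the 24 arrays, which share libraries and days. The dimmest probe was undetected on every array of days 0 and 2 and detected on 2 of 3 arrays on days 4 and 6. It reached 5.80 ± 0.25 on day 8 and 6.11 ± 0.43 on day 10, and was at least 2.09-fold higher on day 18 than on day 0 (adjusted p = 3.9e-05). On the later days it pointed the same way as the other 3, but it gives no reading of their day 2 rise. Its own change from day 0 to day 2 was 0.18 ± 0.24 (adjusted p = 0.594). Its Pearson correlations with the other 3 over the 24 arrays were 0.631, 0.637 and 0.632. With the replicate block the dimmest Hsd11b1 probe also passed from day 2 to day 4 (0.36, adjusted p = 0.0441), for days 2 and 4 against day 0 (0.36, adjusted p = 0.0165) and for day 18 against day 6 (0.63, adjusted p = 0.00144). All 4 probes carry the same transcript accession in the annotation.

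**Figure D2:**
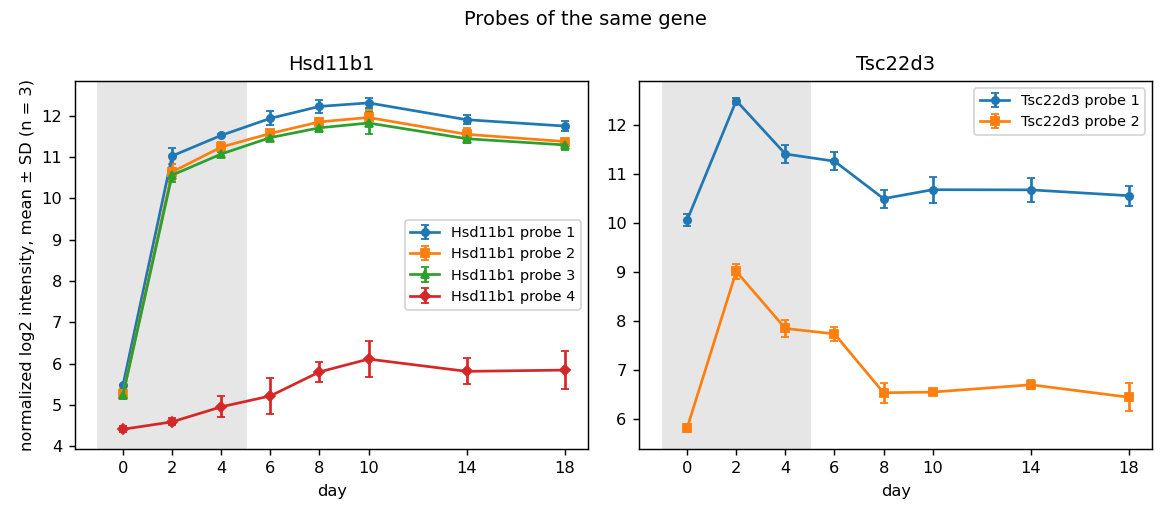
Day means ± SD (n = 3) of normalized log2 intensity against day for the 4 probes of Hsd11b1 (left) and the 2 probes of Tsc22d3 (right), with the grey band over days 0 to 4. The first 3 Hsd11b1 probes rise together on day 2 and the dimmest stays low until day 8, and both Tsc22d3 probes peak on day 2.

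Fkbp5 encodes FKBP51, a co-chaperone that lowers the receptor's affinity for hormone and so forms a feedback loop (chromosome 17, 28398753 to 28486149). It read 7.05, 7.09 and 7.11 on day 0 and 11.22, 11.13 and 11.27 on day 2. It read 11.33, 11.29 and 11.34 on day 4, 10.15, 10.09 and 10.06 on day 6, and 7.32, 7.35 and 7.33 on day 8. The arrays of each of these days lay close together, and every day 8 array was still slightly above every day 0 array. The rise to day 2 was 4.12 ± 0.10, or 17.4-fold (adjusted p = 2.92e-17), and day 4 differed from day 2 by 0.12 ± 0.10 (adjusted p = 0.43).

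Fkbp5 fell at both of the next steps. From day 4 to day 6 the change was -1.22 ± 0.10 (adjusted p = 2.73e-08), and from day 6 to day 8 it was -2.77 ± 0.10, a 6.82-fold fall (adjusted p = 4.71e-13). Day 6, although labelled maturating, still held 73.2% of the day 2 difference from day 0 on the log2 scale, and day 8 held 6.07%. From day 10 to day 18 the day means lay between 6.66 ± 0.18 and 6.97 ± 0.21. Day 18 differed from day 0 by -0.20 ± 0.10 (adjusted p = 0.118), which passed without day 18 replicate 1 (-0.29, adjusted p = 0.0379). Without background correction the day 2 rise was 3.39 and the fall from day 6 to day 8 was -2.20.

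Tsc22d3 encodes GILZ, a leucine zipper protein that mediates anti-inflammatory effects of glucocorticoids and in mesenchymal cells restrains adipogenesis (chromosome X, 140539528 to 140600522). Its 2 probes are annotated to different transcripts of the gene. The brighter probe read 9.96, 10.19 and 10.03 on day 0, 12.44, 12.50 and 12.56 on day 2 and 11.20, 11.49 and 11.54 on day 4. It peaked on day 2 and had dropped by day 4, with no overlap between these 3 days. The rise was 2.44 ± 0.15 (adjusted p = 3.46e-11) and the fall to day 4 was -1.09 ± 0.15 (adjusted p = 6.36e-06).

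The second Tsc22d3 probe rose by 3.19 ± 0.13 (adjusted p = 8.57e-14) and fell to day 4 by -1.16 ± 0.13. Neither probe changed between day 4 and day 6 by the test, at -0.15 ± 0.15 (adjusted p = 0.55) and -0.11 ± 0.13 (adjusted p = 0.626). Both fell from day 6 to day 8, by -0.76 ± 0.15 (adjusted p = 0.0017) and -1.20 ± 0.13 (adjusted p = 4.32e-06). Day 18 was above day 0, by 0.50 ± 0.15 (adjusted p = 0.00802) and 0.62 ± 0.13 (adjusted p = 0.000435). Without day 18 replicate 3 the first of these was 0.39 (adjusted p = 0.0557).

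Ddit4 encodes REDD1, an inhibitor of the growth kinase complex mTORC1 that also responds to hypoxia and to other stresses (chromosome 10, 59949675 to 59951770). Its arrays read 8.75, 8.48 and 8.42 on day 0 and 11.42, 11.34 and 11.63 on day 2. The rise was 2.91 ± 0.14, or 7.53-fold (adjusted p = 1.11e-12). It then fell at each of the next 3 steps, by -0.93, -0.79 and -0.92 (adjusted p = 2.42e-05, 0.000266 and 0.000188), reaching 8.82 ± 0.28 on day 8. Day 18 was at 8.80 ± 0.18, a difference from day 0 of 0.25 ± 0.14 (adjusted p = 0.155, and adjusted p = 0.0375 with the replicate block).

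Errfi1 encodes MIG6, a feedback inhibitor of the epidermal growth factor receptor family (chromosome 4, 150853796 to 150868889). It read 9.28, 9.44 and 9.74 on day 0 and 11.84, 11.84 and 11.72 on day 2, a rise of 2.31 ± 0.12, or 4.97-fold (adjusted p = 2.06e-12). It stood at 11.30 ± 0.12 on day 4 and 10.89 ± 0.12 on day 6, and all day 6 arrays were still above all day 0 arrays. The largest later step was again from day 6 to day 8, at -1.47 ± 0.12 (adjusted p = 6.71e-08). By day 18, at 8.80 ± 0.07, Errfi1 was lower than at the start, by -0.69 ± 0.12 (adjusted p = 4.33e-05), and none of the day 18 arrays reached the day 0 range. The fall from day 4 to day 6, -0.41 ± 0.12 (adjusted p = 0.0131), did not pass without day 4 replicate 1 (adjusted p = 0.0709) or without day 6 replicate 3 (adjusted p = 0.0595).

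The promoter of Errfi1 is shown because the medium held IBMX beside dexamethasone and one of its windows holds the full cyclic AMP response element. The window is the 250 bases before the second of 2 RefSeq starts (GRCm38.p6, chr4:150854820-150855069, plus strand, RefSeq sequence), with the match to TGACGTCA in capitals, 51 to 44 bases before the start.
Errfi1: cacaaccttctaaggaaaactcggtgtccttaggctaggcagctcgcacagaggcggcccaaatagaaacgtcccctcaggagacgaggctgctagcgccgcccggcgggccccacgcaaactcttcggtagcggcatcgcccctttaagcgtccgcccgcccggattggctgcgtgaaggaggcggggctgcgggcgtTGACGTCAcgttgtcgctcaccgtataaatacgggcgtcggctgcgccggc
The palindrome TGACGTCA, searched on both strands, is in 1.55% of the 32851 RefSeq windows of 250 bases. The windows searched were those of all members but Nr3c1 and Zbtb16, and no other held it. A match describes these letters and is not a measured binding site.

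**Figure D3:**
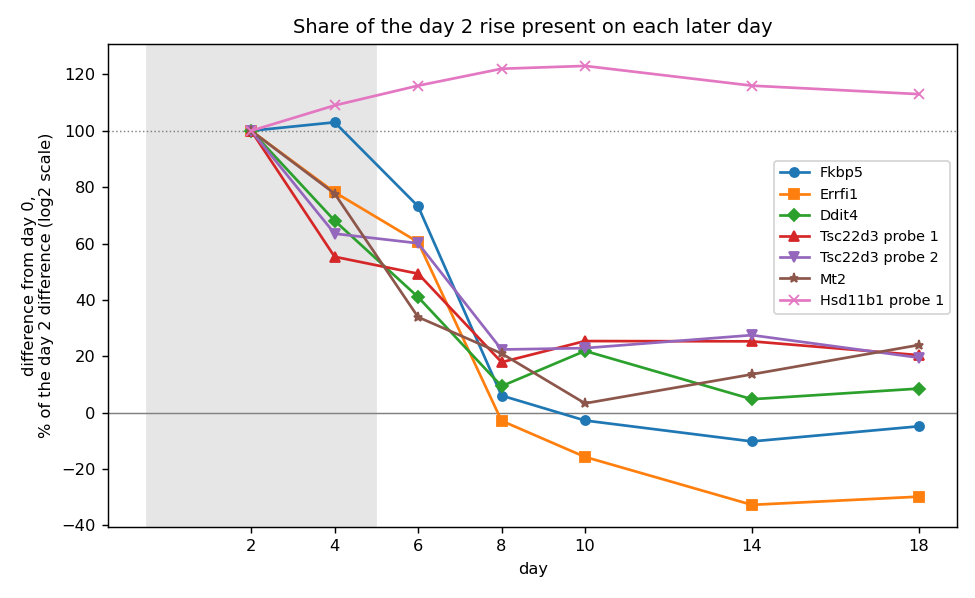
Difference of each day mean from day 0, as a percentage of the day 2 difference on the log2 scale (vertical axis), against day for 7 probes, with the grey band up to day 5. Fkbp5 held 73.2% on day 6 and 6.07% on day 8 and Errfi1 60.5% and -2.88%, whereas Hsd11b1 held 113% on day 18.

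Across these 4 transient genes the share of the day 2 difference left on day 6 was 73.2% for Fkbp5, 60.5% for Errfi1, 49.3% and 60.1% for the 2 Tsc22d3 probes and 41% for Ddit4. On day 8 it was between -2.88% for Errfi1 and 22.4% for the second Tsc22d3 probe. Their day means correlated at 0.855 to 0.981 with each other over 8 days, with Errfi1 and Fkbp5 the closest pair, and these points share the same libraries. In bulk RNA, fewer cells with a high level and a lower level per cell cannot be told apart.

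Sgk1 encodes a kinase that promotes sodium transport and cell survival, and it is a classical glucocorticoid-induced gene in many cells (chromosome 10, 21882184 to 21999903). Here it went the other way. Its arrays read 11.22, 11.30 and 11.12 on day 0 and 10.35, 10.00 and 10.01 on day 2, so that every day 2 array lay below every day 0 array. The fall was -1.09 ± 0.12 (adjusted p = 1.63e-07). The level did not pass a change between days 2 and 4 (0.03 ± 0.12, adjusted p = 0.877) or days 4 and 6 (-0.24 ± 0.12, adjusted p = 0.159, and adjusted p = 0.0432 with the replicate block), and fell again from day 6 to day 8 by -0.57 ± 0.12 (adjusted p = 0.00285). The lowest day mean was 9.08 ± 0.09 on day 10, and day 18 was 3.68-fold below day 0 (adjusted p = 3.47e-11).

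The full glucocorticoid response element was searched only as an exact palindrome, in 6 windows for Sgk1 and in 1 to 3 for each other member searched. Sgk1 was the only one of them with a match to it before a start. That window, before the fifth of its 6 RefSeq starts (GRCm38.p6, chr10:21993640-21993889, plus strand, RefSeq sequence), is shown with the match in capitals (AGAACA, 3 free bases and TGTTCT), 189 to 175 bases before the start.
Sgk1: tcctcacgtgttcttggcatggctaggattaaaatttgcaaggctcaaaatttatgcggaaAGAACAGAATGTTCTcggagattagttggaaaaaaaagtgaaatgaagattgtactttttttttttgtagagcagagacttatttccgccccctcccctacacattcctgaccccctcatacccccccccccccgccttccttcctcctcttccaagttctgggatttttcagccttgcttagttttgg
This palindrome, searched on both strands, is in 3 of the 32851 windows of 250 bases. Its 6-letter arm TGTTCT, which lies within the palindrome on each strand, is in 16.1% of windows. Among the members it also lies in another pair of Sgk1 windows and in 1 of 3 Tsc22d3 windows. The windows searched for Fkbp5, Ddit4, Errfi1, Hsd11b1, Mt1 and Mt2 held neither form. That says only that these letters are not in those windows, and known receptor sites of such genes often lie far from the start. The only Hsd11b1 window (193242361 to 193242610, minus strand) lies inside the gene coordinates given for it. The only Mt1 window (94178839 to 94179088, plus strand) lies mostly inside those of Mt1. The bases before the outer start were thus not searched for Hsd11b1, and only in part for Mt1. Which of the 6 starts the single Sgk1 probe reports on was not tested.

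The metallothioneins Mt1 and Mt2 encode small cysteine-rich proteins that bind zinc and copper, and both genes respond to metals and to glucocorticoids. They are neighbours on chromosome 8, Mt2 at 94172618 to 94173567 and Mt1 at 94178883 to 94180327. The Mt2 probe was dim, detected on 22 of 24 arrays with raw intensities of 125 to 243. It read 4.75, 5.16 and 4.75 on day 0 and 6.82, 7.05 and 6.67 on day 2, with no overlap. The rise was 1.96 ± 0.14 (adjusted p = 3.19e-10), and it was 0.74 without background correction.

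Mt2 then fell to 6.41 ± 0.15 on day 4 and to 5.55 ± 0.30 on day 6, by -0.44 ± 0.14 (adjusted p = 0.0171) and -0.86 ± 0.14 (adjusted p = 8.43e-05). The first of these did not pass without day 2 replicate 2 (adjusted p = 0.0983) or without day 4 replicate 3 (adjusted p = 0.0853). From day 6 to day 8 it changed by -0.25 ± 0.14 (adjusted p = 0.31) and held 21% of its day 2 difference, after 33.9% on day 6. Day 18 remained 0.47 ± 0.14 above day 0 (adjusted p = 0.00729).

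The Mt1 probe was among the brightest of the table. Raw intensities ran from 10740 to 20231, where the highest intensity of any probe was between 22815 and 28804 per array. Whether a ceiling on bright signals touches its changes was not tested. Mt1 read 13.63, 13.62 and 13.58 on day 0 and 14.05, 14.00 and 14.05 on day 2, a rise of 0.43 ± 0.08, or 1.35-fold (adjusted p = 0.00011). It stayed at 14.05 ± 0.01 on day 4 and 14.09 ± 0.08 on day 6, and then fell by -0.40 ± 0.08 to 13.69 ± 0.18 on day 8 (adjusted p = 0.00161). On day 8 replicate 1 read 13.89 and the others 13.61 and 13.56. Its means on days 10, 14 and 18 were 13.78, 13.81 and 13.90, and no single step after day 8 passed. Day 18 was above day 0 by 0.29 ± 0.08 (adjusted p = 0.00393). On the scale of these probes Mt1 moved little and Mt2 more, and the difference between them was not tested.

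The window before the Mt2 start is shown because metals act on these genes through the metal response element (GRCm38.p6, chr8:94172368-94172617, plus strand, RefSeq sequence). Only the form TGCGCNC of the element was searched, on both strands. The match to it is in capitals, 128 to 122 bases before the start.
Mt2: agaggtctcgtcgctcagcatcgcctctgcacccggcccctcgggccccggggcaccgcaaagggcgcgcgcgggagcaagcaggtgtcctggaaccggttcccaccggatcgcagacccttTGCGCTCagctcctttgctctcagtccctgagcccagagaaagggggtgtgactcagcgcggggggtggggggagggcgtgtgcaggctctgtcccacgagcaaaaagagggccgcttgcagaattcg
TGCGCNC is in 12.5% of the 32851 windows. Among the members searched it was found in this window and in that of Ddit4. Other forms of the element were not searched, so none is marked here. Their absence from other windows, that of Mt1 included, is not shown.

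**Figure D4:**
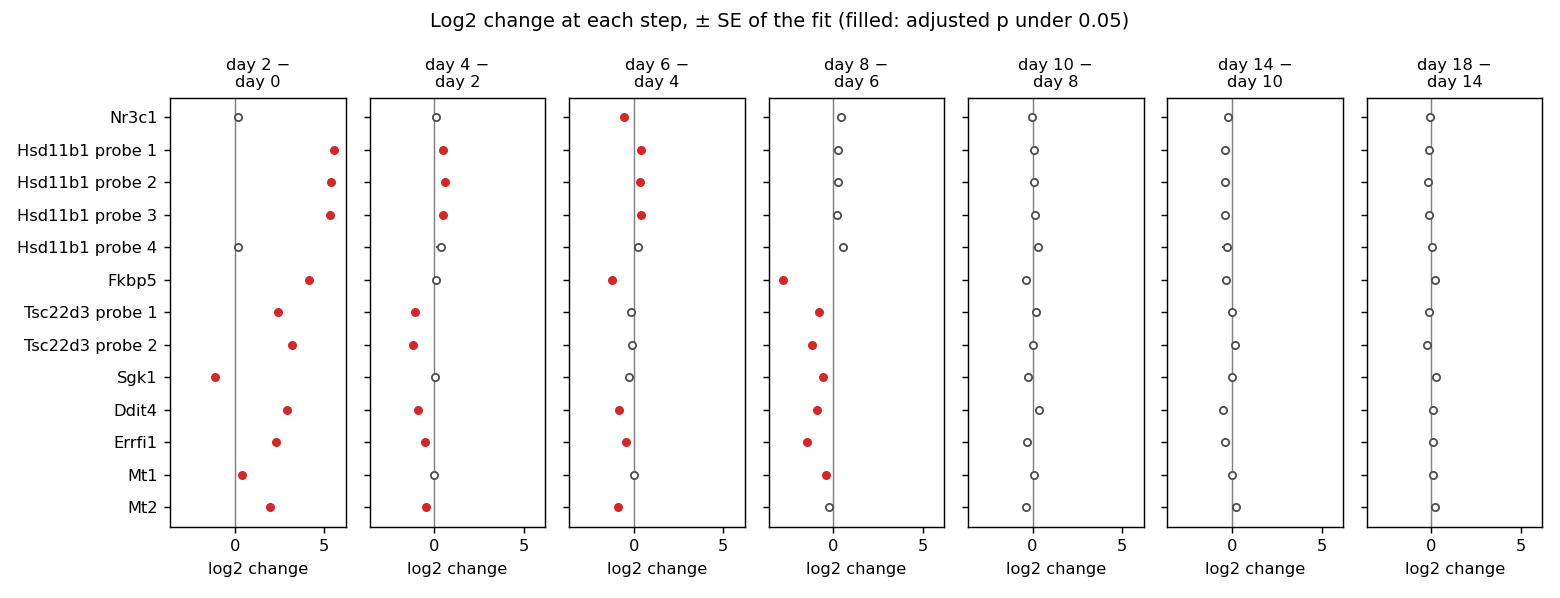
Log2 change ± SE of the fit (horizontal axis) for each of the 13 probes at each of the 7 successive steps of the course, with filled red points where the adjusted p was under 0.05. Changes are large from day 0 to day 2, 7 probes fall from day 6 to day 8, and no probe passes in the last 3 steps.

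The steps can be read together against all tested probes. Over the whole course 12 of the 13 member probes changed by the F test, where 72.6% of all 14160 probes did. From day 0 to day 2, 10 member probes rose and 1 fell, with a median of 2.44, where 24.6% of all probes rose and 24.2% fell around a median of 0.03. From day 2 to day 4, 3 rose, all of them Hsd11b1, and 5 fell, where 18.4% and 20.5% of all probes did. From day 4 to day 6, 3 rose, again the Hsd11b1 probes, and 5 fell, where 13.7% and 13% did. Without day 6 replicate 1 the 3 Hsd11b1 rises did not pass (adjusted p = 0.0511, 0.118 and 0.0628) and 5 calls were left in place of 8, and without day 6 replicate 3 there were also 5. Without day 4 replicate 2 there were 6. Probes of the same gene are not independent of each other, and successive steps share the arrays of a day.

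From day 6 to day 8 no member probe passed upwards and 7 fell: Fkbp5, Errfi1, both of Tsc22d3, Ddit4, Sgk1 and Mt1. Of all probes 6.17% rose and 4.77% fell at this step. With the replicate block, which called 20.9% of all probes at this step, 3 Hsd11b1 probes rose as well. The member median was -0.40, against -0.01 for all probes. At the same step the fibroblast markers Col1a1, Dlk1 and Thy1 rose, by 1.02, 0.91 and 0.45, with 3 of 4 passing, and of 6 adipocyte markers Lep rose, by 0.75. Their part in the falls of the members was not tested.

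Between days 8 and 10, days 10 and 14, and days 14 and 18, 0 of 13 passed, with 5, 6 and 1 at an unadjusted p under 0.05, and 3.27%, 1.77% and 0.395% of all probes passed in either direction. With the replicate block, which called 9.17% of all probes between days 8 and 10 and 4.71% between days 10 and 14, 2 member probes passed between days 8 and 10, Fkbp5 falling by -0.36 ± 0.10 (adjusted p = 0.0247) and Ddit4 rising by 0.36 ± 0.10 (adjusted p = 0.0282). With it 4 passed between days 10 and 14, 3 Hsd11b1 probes and Ddit4, which fell by -0.50 ± 0.10 (adjusted p = 0.00614).

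Days 6 to 18 differed from days 2 and 4 in all 13 member probes, 4 higher and 9 lower, where 27.4% of all probes were higher and 32.4% lower. The count was 12 or 13 in the 24 fits that each left out 1 array. Nr3c1 was lost in most of them, for instance without day 0 replicate 1 (adjusted p = 0.0526). The Nr3c1 call was also lost with no background correction (adjusted p = 0.0662), normexp (adjusted p = 0.0588) and no detection filter (adjusted p = 0.0776). All 6 adipocyte markers (median 1.86) and all 4 fibroblast markers (median 0.67) were higher in that comparison as well, and their part was not tested. The 4 higher ones were the Hsd11b1 probes. The falls were -3.67 ± 0.06 for Fkbp5, or 12.8-fold (adjusted p = 2.86e-20), -2.16 ± 0.07 for Errfi1, -1.95 ± 0.08 for Ddit4, -1.64 ± 0.08 and -1.22 ± 0.09 for Tsc22d3, -1.37 ± 0.08 for Mt2, -0.78 ± 0.07 for Sgk1, -0.24 ± 0.10 for Nr3c1 and -0.19 ± 0.05 for Mt1. Day 18 differed from day 0 in 10 member probes, 8 higher and 2 lower, where 22.7% and 31.2% of all probes did. The lower ones were Sgk1 and Errfi1. Fkbp5, Ddit4 and Nr3c1 did not pass, although Ddit4 did with the replicate block (adjusted p = 0.0375) and Fkbp5 without day 18 replicate 1 (adjusted p = 0.0379). Day 18 was lower than day 6 in 6 member probes and higher in none, where 17.8% and 15.7% of all probes were. With the replicate block Mt1 was also lower (-0.19, adjusted p = 0.0452) and the dimmest Hsd11b1 probe was higher (adjusted p = 0.00144). Days 6 to 18 exceeded day 0 in 10 member probes and were lower in 1, Sgk1, where 27.5% and 33.9% of all probes were. This is a mean over those days. Fkbp5 stood at 10.10 and 7.33 on days 6 and 8, against 7.08 on day 0. Its means on days 10, 14 and 18 were below day 0, at 6.97, 6.66 and 6.88. The Mt2 call did not pass without day 0 replicate 3 (0.31, adjusted p = 0.0508).

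Other genes with a day profile like that of a member were found by Pearson correlation over the 8 day means, which share libraries, among 3912 genes that passed the F test and spanned at least 1 log2 unit between days. Closest to Fkbp5 were Rpl7l1 (0.989), Tead4 (0.987) and Ccl25 (0.985). Tead4, a transcription factor gene of the TEAD family, had day means of 5.28, 7.90, 7.03 and 5.86 for days 0, 2, 6 and 8. Closest to Tsc22d3 were Lrp5 (0.994), which encodes a Wnt co-receptor, Pus7 (0.975) and Ifrd2 (0.973). Closest to Hsd11b1 were Chp1 (0.994), Gnb5 (0.993) and Scp2 (0.991), which encodes a sterol carrier protein.

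Mt2 was most like Abcf2, Rpf2 and Myc, each at 0.989, and Myc, the growth-promoting transcription factor gene, had day means of 4.69, 6.69 and 5.29 for days 0, 2 and 8. Mt1 was most like Dusp14 (0.931), Slc25a29 (0.897) and Gadd45g (0.894). For Nr3c1, whose own change did not pass, the closest were Elovl1 (0.743), Gnl2 (0.68) and Irs2 (0.66). With 8 points and this many genes, high values are to be found for most profiles, and they say nothing of shared control.

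The wider glucocorticoid pathway was described through gene lists, each gene by its brightest tested probe. The lists were chosen with earlier results of these data known, so their counts describe the lists and are not a test of them. The shares beside the list counts are of all probes and not of genes. With 1 probe per gene, 58.5% of 9558 passed in either direction for days 2 and 4 against day 0. The share was 61.6% for days 6 to 18 against days 2 and 4, and 13% for day 8 against day 6. Of 27 other glucocorticoid targets 23 were tested. In days 2 and 4 against day 0, 19 of them rose and 1 fell, with a median of 1.59, where 28.8% of all probes rose and 27.5% fell. In the same comparison 10 member probes rose and 1 fell, all 6 adipocyte markers rose (median 2.64) and all 4 fibroblast markers fell (median -2.77), and the part of that change of cell state was not tested. The largest rises were in Lcn2, which encodes an iron-carrier-binding acute phase protein, at least 87-fold (adjusted p = 1.02e-18), Agt, the angiotensinogen gene (4.99 ± 0.11), Orm1, an acute phase protein gene (4.69 ± 0.11), and Lpin1, a triglyceride synthesis enzyme gene (3.64 ± 0.17). Anxa1, an anti-inflammatory annexin gene, fell by -1.78 ± 0.45 (adjusted p = 0.00205).

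In days 6 to 18 against days 2 and 4 the list had 8 genes higher, 12 lower and 3 not passing, where 27.4% of all probes were higher and 32.4% lower. Its median was -0.39, against -0.04 for all genes. Lcn2 fell by -4.55 ± 0.10, Cebpb, an early adipogenic factor gene, by -0.97 ± 0.06, Irs2, an insulin receptor substrate gene, by -0.91 ± 0.16, and Agt by -0.87 ± 0.07. Orm1 rose by 2.91 ± 0.08, the transglutaminase gene Tgm2 by 2.47 ± 0.08, Klf15, a transcription factor gene of fasting metabolism, by 1.76 ± 0.16, and Pck1, the gluconeogenic and glyceroneogenic enzyme gene, by 1.74 ± 0.30. Most of the list still stood above day 0. In days 6 to 18 against day 0, 19 genes were higher and 1 lower (median 1.09), where 27.5% and 33.9% of all probes were. Day 18 was above day 0 in 17 genes and below it in 0 (median 1.25), where 22.7% and 31.2% of all probes were. At the step from day 6 to day 8, 5 of the 23 fell and 1 rose, where 4.77% of all probes fell and 6.17% rose. Those that fell were Agt (-1.23 ± 0.13), Nfkbia (-0.63 ± 0.15), Lcn2 (-0.62 ± 0.17), the clock gene Per1 (-0.52 ± 0.15) and Bcl6 (-0.38 ± 0.12), and Tgm2 rose by 0.81 ± 0.13, all named after their values were seen. The median of the list at that step was -0.18, against -0.01 for all genes. Several of these genes are also known to respond to cyclic AMP or to differentiation itself, whose part was not tested.

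**Figure D5:**
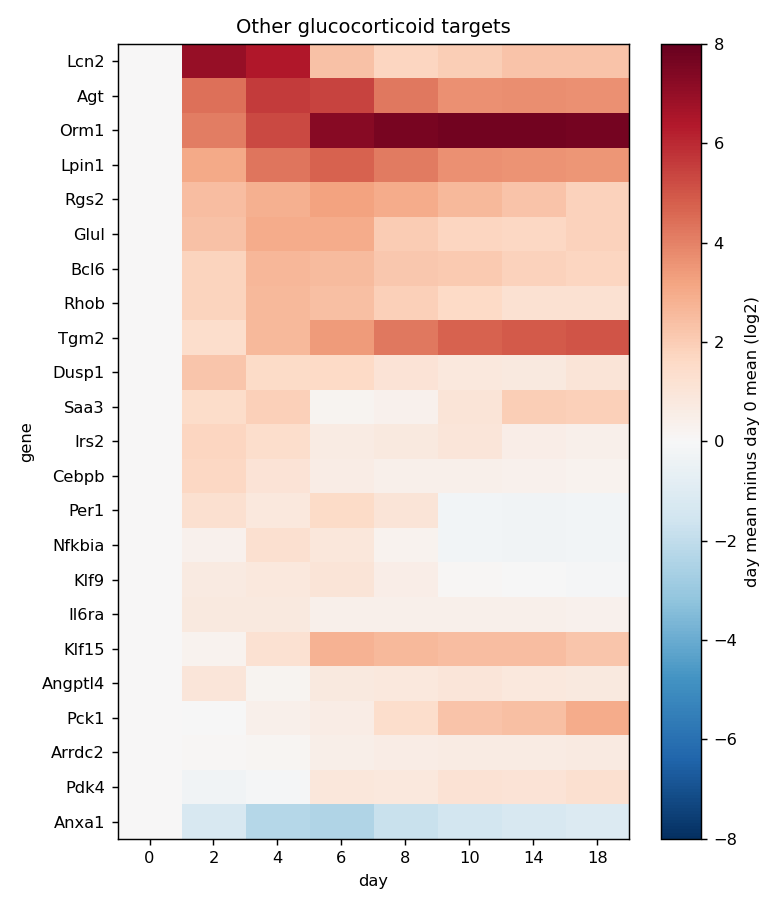
Day mean minus day 0 mean on the log2 scale (colour, red higher and blue lower) for the 23 tested genes of the list of other glucocorticoid targets (rows, ordered by the mean of days 2 and 4) on each of the 8 days (columns). Lcn2 is high on days 2 and 4 and falls by day 6, whereas Orm1 and Tgm2 go on rising.

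The counts of the other 4 lists are small, and they stand against 28.8% of all probes higher and 27.5% lower in days 2 and 4 against day 0, and 27.4% higher and 32.4% lower in days 6 to 18 against days 2 and 4. Of 13 chaperone and steroid enzyme genes 8 were tested, of which 3 rose and 2 fell in days 2 and 4 against day 0. Stip1, which encodes the Hsp70-Hsp90 organizing protein, rose by 0.75 ± 0.11, Bag1 by 0.60 ± 0.06, and Fkbp4, the co-chaperone that competes with FKBP51, by 0.39 ± 0.07 (adjusted p = 4.99e-05). H6pd, which supplies the cofactor for the enzyme of Hsd11b1, fell by -0.61 ± 0.10 (adjusted p = 2.68e-05), and Dnajb1 by -0.26 ± 0.07. Later H6pd rose by 1.46 ± 0.07 in days 6 to 18 against days 2 and 4 (adjusted p = 1.88e-13), to 9.69 on day 18 from 8.85 on day 0. H6pd was thus lowest on day 2, when Hsd11b1 had already risen. Bag1 rose further (0.38 ± 0.04), while Stip1, Fkbp4, Ptges3 and Dnajb1 fell by -0.90, -0.62, -0.57 and -0.12.

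Of 10 coregulator genes 7 were tested. In days 2 and 4 against day 0 the coactivator gene Ncoa1 rose by 1.07 ± 0.09 (adjusted p = 4.2e-09) and Med1 by 0.55 ± 0.22 (adjusted p = 0.0354), and Ncoa2 fell by -0.74 ± 0.14 from a level near background. In days 6 to 18 against days 2 and 4 Med1 (-0.74 ± 0.15) and Smarca4 (-0.61 ± 0.07) fell and none rose.

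Of 10 genes of metal handling 7 were tested. Slc30a1, the zinc exporter gene that shares metal control with the metallothioneins, rose by 1.31 ± 0.14 in days 2 and 4 (adjusted p = 6.92e-08), the zinc importer gene Slc39a14 by 0.56 ± 0.09 and Slc30a5 by 0.46 ± 0.09, and the heme oxygenase gene Hmox1 fell by -0.29 ± 0.10. The first 3 fell again in days 6 to 18, by -0.91, -0.53 and -0.28, as did Mtf1, the metal-sensing transcription factor gene, by -0.37 ± 0.07, and Hmox1 rose by 0.98 ± 0.07. Slc39a14 and Mtf1 lay near background, each detected on 15 of 24 arrays, which limits the size of their changes.

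Among 11 relatives and partners of members 8 were tested, and in days 2 and 4 against day 0 only Tsc22d1, a relative of Tsc22d3, rose (0.91 ± 0.13). Nedd4l, a ubiquitin ligase gene whose product is a substrate of the Sgk1 kinase, fell by -1.18 ± 0.09, Egfr, the receptor gene whose product Errfi1 restrains, by -1.08 ± 0.11, Tsc22d4 by -1.02 ± 0.13 and Fkbp1a by -0.32 ± 0.07. In days 6 to 18 against days 2 and 4 Nedd4l (0.80 ± 0.06), Tsc22d1 (0.78 ± 0.09), Sgk3 (0.37 ± 0.14) and Tsc22d4 (0.22 ± 0.09) rose, and Egfr (-0.46 ± 0.07) and Fkbp1a (-0.43 ± 0.05) fell. Sgk3, a relative of Sgk1, thus moved the opposite way to Sgk1 in that comparison, although the difference between them was not tested.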

How the data were processed

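Biotin-labelled cRNA was made from the total RNA of 24 samples for Illumina arrays, per the labels' protocols. The authors deposited probe intensity on a linear scale, neither background-subtracted nor normalized, with a detection p-value per probe in steps of 1 in 798 negative controls. A second deposited table holds intensity whose values reach below 0 and whose array medians (9.60 to 9.70) nearly coincide; its processing is not stated in the labels. The submitters' processing notes name GenomeStudio 2011.1.

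Intensities were processed with neqc of limma 3.58.1 in R 4.3.3 (offset 16, controls modelled from detection p). Probes with detection p under 0.05 on at least 3 arrays were kept (14160). The probe annotation gave 1 symbol for 23978 probes, several for none and no symbol for 1719, with 23962 matched by Entrez identifier to RefSeq (GRCm38.p6). A limma fit with 8 day means (16 residual degrees of freedom) gave the moderated F test and 12 contrasts, with Benjamini-Hochberg adjustment over 14160 probes and calls at 0.05. A fold against a day on which a probe was undetected on all arrays is a bound ("at least"), set against the lowest detected signal of each array. The fit was tested on simulated data.

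Same-numbered replicates deviated together in all 84 pairs of arrays from different days (r = 0.28 to 0.763), so a fit with the replicate number as a block is given beside the results whose call it changes. Alternatives were no background correction, normexp with offset 50, the authors' table floored at 16, no filter, 1 probe per gene, and each array left out. The members, lists and comparisons were chosen with earlier results of these data known. Named genes are all member probes, the up to 4 largest called rises and falls per list in the comparisons of days 2 and 4 with day 0 and of days 6 to 18 with days 2 and 4, and the 3 most correlated genes.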

Additional observations from a re-analysis of the deposited data

How the results depend on the processing

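Of 156 member differences (13 probes, 12 comparisons), none reversed its sign as a call under any alternative run. Without background correction 151 kept their side of the threshold and 5 did not, likewise under normexp with offset 50, and 152 did with the values of the authors' own processing. In the counts of called member probes, no background correction gave 1 between days 8 and 10 and 2 between days 10 and 14 in place of 0, normexp gave 1 and 2, and the authors' table gave 1 between days 10 and 14. With 1 probe per gene the counts were 5 from day 2 to day 4, 6 for day 18 against day 0 and 7 for days 6 to 18 against day 0, in place of 8, 10 and 11, since 9 probes remained. With the replicate block 141 of 156 kept their side, 15 more passed and none was lost, and the block gave 2 and 4 calls for the steps from day 8 to 10 and day 10 to 14. It moved the calls over all probes from 1549 to 2957 for day 8 against day 6, from 463 to 1299 for day 10 against day 8, from 250 to 667 for day 14 against day 10 and from 56 to 126 for day 18 against day 14, and the authors' table gave 86 for the last. Leaving out single arrays gave 5 to 8 called member probes from day 4 to day 6, 0 to 1 from day 8 to day 10 and 0 to 2 from day 10 to day 14. Nr3c1, Mt2 and the fourth Hsd11b1 probe lie near background, which limits the size of their changes.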
